A study of Brassica rapa with 9 samples.

Results

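The 9 genes described here encode enzymes of the flavonoid and anthocyanin pathway in Brassica rapa and were taken by ID from the 41020 gene IDs of the count tables. They are Bra008792 and Bra006224 (chalcone synthase, CHS), Bra036828 (flavanone 3-hydroxylase, F3H), Bra009312 (flavonoid 3'-hydroxylase, F3'H), Bra027457 (dihydroflavonol 4-reductase, DFR), Bra013652 and Bra019350 (anthocyanidin synthase, ANS) and Bra008570 and Bra023602 (the glutathione S-transferase TT19). The tables hold IDs only, so the enzyme names come from the gene list that defined the set and were not checked against an annotation or a sequence. All 9 IDs were present in each of the 9 libraries.

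The study asked how Kimchi cabbage carrying Arabidopsis thaliana phytochrome B differs from non-transgenic plants, in libraries from whole seedlings of the cultivar Chiifu. The G564E genotype carried a phytochrome B whose glycine at residue 564 is replaced by glutamate, the AtPHYB genotype carried the unmodified receptor, and the non-transgenic genotype (NT, labelled wild-type) carried neither, with 3 libraries each. All plants were 2 weeks old, were grown on MS medium with 0.5% sucrose under the light regime the labels abbreviate as LD, and had no heat treatment. The labels name no promoter for the transgenes, do not say whether a genotype is 1 transgenic line or several, and do not tell whether a replicate is its own plant or a pool. The p-values below therefore weigh differences between genotypes against the variation among these particular libraries, and some of that variation may be technical. They do not reach beyond these libraries to other lines or plants.

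Flavonoids are made from phenylpropanoid precursors. CHS catalyses the first committed step, F3H and F3'H hydroxylate the flavanone and flavonoid skeleton, DFR and ANS carry the products on towards coloured anthocyanidins, and TT19 is needed in Arabidopsis for anthocyanins to reach the vacuole. In Arabidopsis seedlings, light acting through phytochromes and cryptochromes is known to raise the transcripts of these enzymes.

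Libraries held between 15262884 and 20998541 counted reads. Replicates of 1 genotype differed from each other by more than sampling noise, with a chi-square per degree of freedom between 11.4 and 30.6 for most replicate pairs. G564E replicate 1 stood apart from G564E replicates 2 and 3 (93.6 and 105, against 15.7 between replicates 2 and 3), and NT replicate 3 differed from NT replicate 2 at 39.6. Neither the transgene nor any tissue marker could be tied to an ID, so the genotype and tissue labels were not checked against the data.

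Most of the pathway genes were thinly covered in these seedlings. F3H Bra036828 had 1386 reads over the 9 libraries, ANS Bra013652 had 731 and CHS Bra008792 had 149. The median was 2076 reads over the 27967 genes that passed the low-count filter. Among all 41020 IDs, of which 5057 had no read, F3H had more reads than 59.5%. ANS Bra013652 had more than 51.1% of them, and CHS Bra008792 more than 36.5%. The other 6 members had between 1 and 65 reads in all and did not pass the filter, which asks for about 10 reads in a library of median size in at least 3 libraries. F3H reached that level in every library. ANS Bra013652 passed through the AtPHYB and G564E libraries alone. CHS Bra008792 reached it in all 3 AtPHYB libraries but in only 1 G564E and 1 NT library. The passing of both therefore depended on the groups where they were high, and without the AtPHYB libraries CHS Bra008792 was not tested. Read sharing between the 2 copies of an enzyme was not tested.

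**Figure D1:**
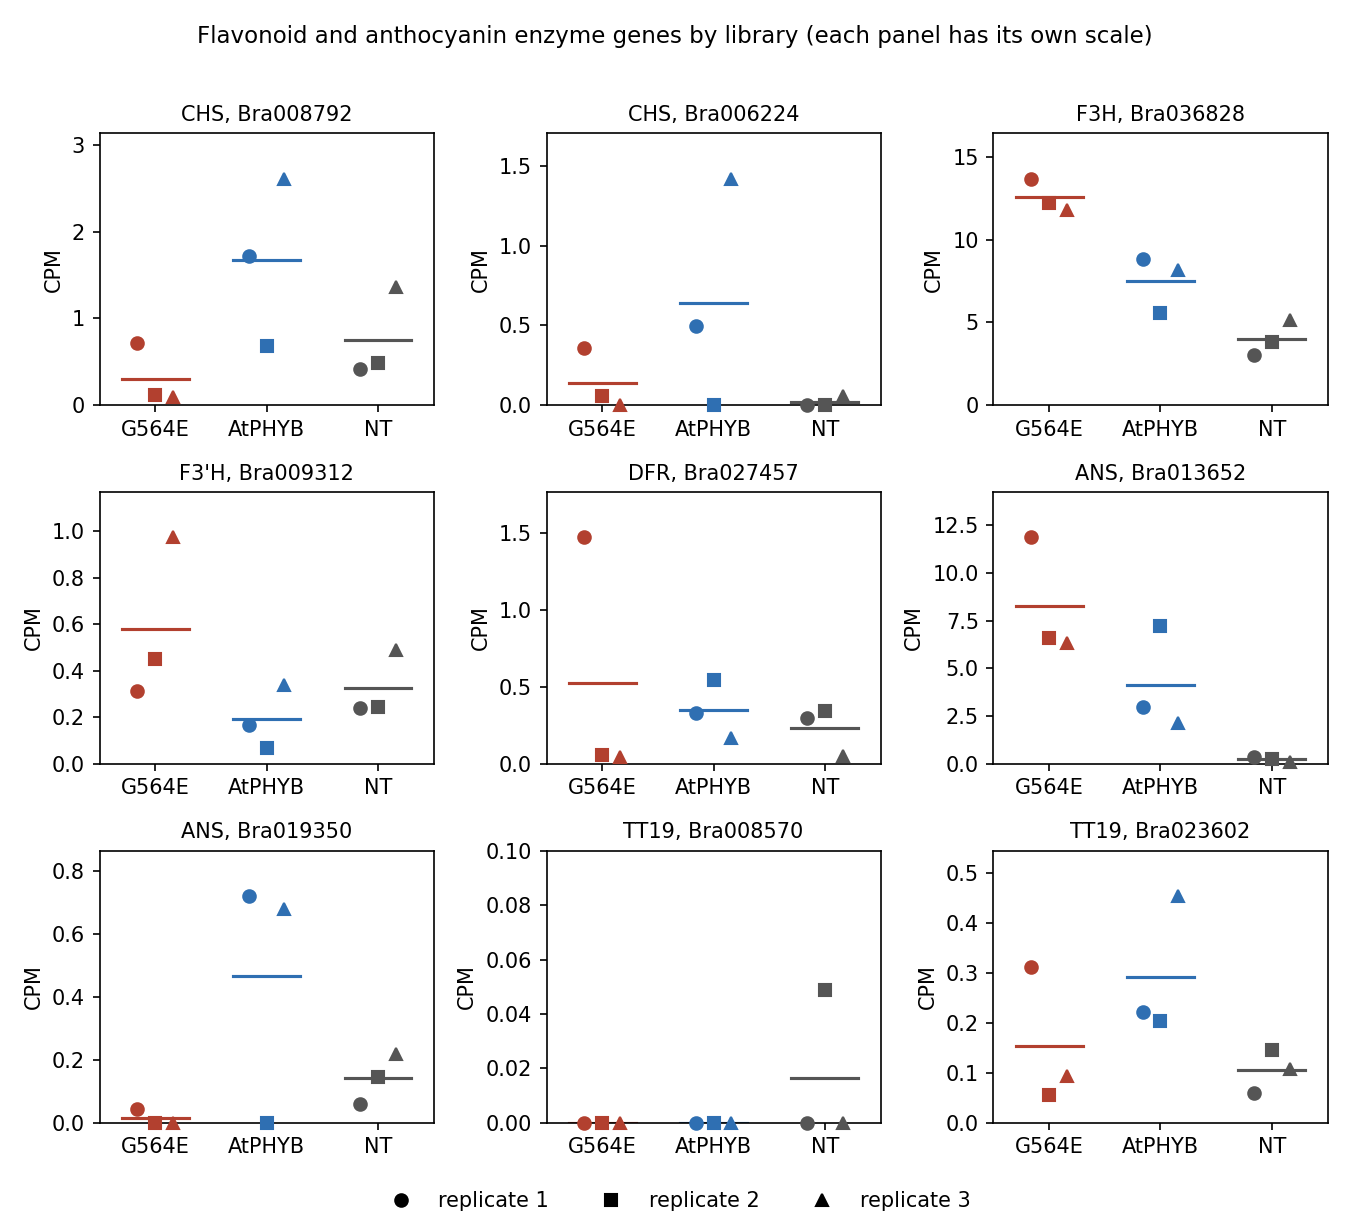
CPM, the read count scaled to library size with edgeR's TMM method (which adjusts for differences in library composition), of each of the 9 members in each library, with G564E, AtPHYB and NT from left to right, symbols for the replicate number and a line at each genotype's mean. F3H Bra036828 lies between 11.8 and 13.7 CPM in G564E, above every AtPHYB and NT library, and ANS Bra013652 lies at or below 0.360 CPM in every NT library.

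Most reads of the set came from F3H in NT and from F3H and ANS Bra013652 in the transgenic genotypes. F3H Bra036828 and ANS Bra013652 together took 88.8%, 96.2% and 93.8% of the members' reads in G564E replicates 1, 2 and 3, 76.3%, 89.5% and 64.5% in the AtPHYB replicates and 76.0%, 74.1% and 69.8% in the NT replicates. In NT this was nearly all F3H, since ANS Bra013652 took 8%, 4.46% and 1.44% there, and its 13 NT reads were fewer than the 42 of CHS Bra008792 and the 18 of F3'H. Summed over all 9 members, the level was 28.7, 19.5 and 19.3 CPM in G564E, 15.5, 14.2 and 16.01 CPM in AtPHYB and 4.49, 5.48 and 7.55 CPM in NT. The 3 genotypes did not overlap in this sum. The other 7 members summed to 1.71 ± 1.31 CPM in G564E, 3.61 ± 2.09 CPM in AtPHYB and 1.59 ± 0.620 CPM in NT (SD, n = 3 each), and there the genotypes overlapped. In whole seedlings, a difference in the number of cells that make a transcript and a difference in RNA per cell cannot be told apart.

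**Figure D2:**
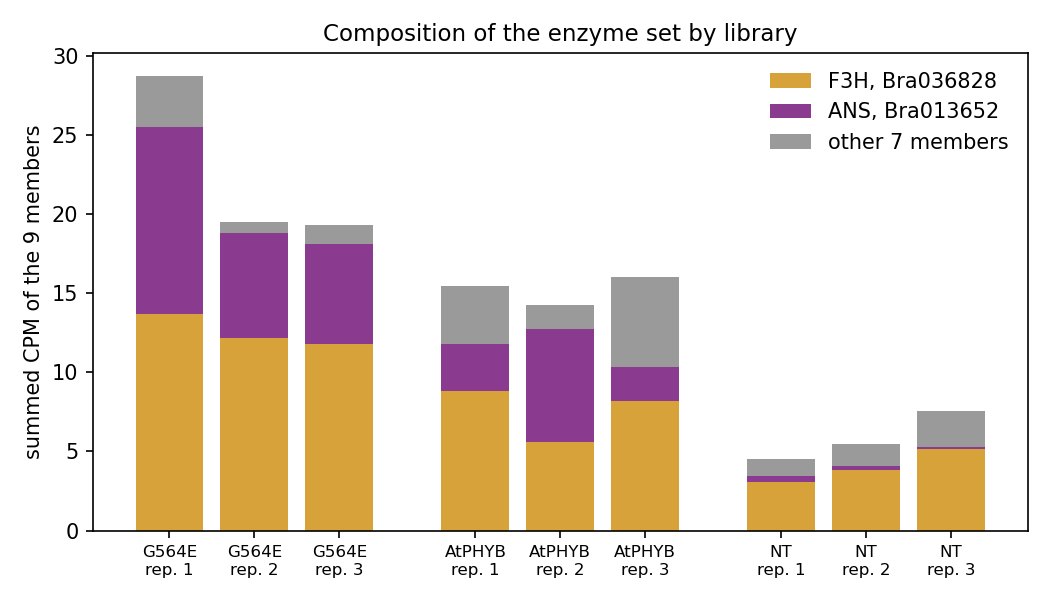
Summed CPM of the 9 members in each library, as stacked bars for F3H Bra036828, ANS Bra013652 and the other 7 members, with G564E left, AtPHYB in the middle and NT right. The ANS part is 6.35 to 11.8 CPM in G564E, 2.16 to 7.19 CPM in AtPHYB and at most 0.360 CPM in NT.

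Chalcone synthase opens the pathway, and its reads were few in every genotype. CHS Bra008792 had 0.713, 0.113 and 0.0927 CPM in G564E replicates 1, 2 and 3 (16, 2 and 2 reads), 1.72, 0.678 and 2.61 CPM in the AtPHYB replicates (31, 10 and 46 reads) and 0.419, 0.489 and 1.36 CPM in the NT replicates (7, 10 and 25 reads). Replicates 2 and 3 of G564E lay below every other library, and each pair of genotypes overlapped.

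CHS Bra008792 did not pass the test in any comparison. Its log2 fold change was -1.26 ± 0.86 (SE) for G564E against NT (adjusted p = 0.306, edgeR's quasi-likelihood test with Benjamini-Hochberg adjustment), 1.14 ± 0.80 (SE) for AtPHYB against NT (edgeR adjusted p = 0.566) and -2.40 ± 0.85 (SE) for G564E against AtPHYB (edgeR adjusted p = 0.0569). Both comparisons of G564E depended on G564E replicate 1. Without it, CHS Bra008792 was called lower in G564E than in NT, at a log2 fold change of -2.81 (edgeR adjusted p = 0.0412). It was also called lower than in AtPHYB, at -3.96 (edgeR adjusted p = 0.0081). CHS Bra008792 had joined the tested genes only with the AtPHYB libraries, where it was high. With all libraries and no filter, G564E was not called against NT (log2 fold change -1.28, edgeR adjusted p = 0.322). Nor was it called against AtPHYB in that fit (-2.42, edgeR adjusted p = 0.0590). The adjusted p over all alternatives ran from 0.0412 to 0.711 for G564E against NT and from 0.0081 to 0.174 for G564E against AtPHYB, where DESeq2 (0.0228) and limma-voom (0.0423) also made the call. The log2 fold change of G564E against NT was -0.55 without NT replicate 3, and that of AtPHYB against NT was 1.86 without NT replicate 3 and 0.67 without AtPHYB replicate 3, none of them called.

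The second CHS copy, Bra006224, had 8, 1 and 0 reads in the G564E replicates, 9, 0 and 25 in the AtPHYB replicates and 0, 0 and 1 in the NT replicates. Its reads came mostly from AtPHYB replicates 1 and 3 and G564E replicate 1, in which CHS Bra008792 was also higher than in the remaining libraries of the same genotype. Summed over libraries and scaled to depth, AtPHYB had 37.5 times the reads of NT (exact 95% counting interval 6.28 to 1523), and G564E had 8.09 times (1.12 to 355). The only NT read was in replicate 3, so neither ratio could be had without that library. The AtPHYB ratio was 15.2 without AtPHYB replicate 3 and 23.7 without NT replicate 2, and the G564E ratio was 12.4 without G564E replicate 3 and 5.11 without NT replicate 2. Without G564E replicate 1, G564E and NT had 1 read each. Against AtPHYB, G564E had 0.216 times the reads (0.0911 to 0.460), with 0.531 without AtPHYB replicate 3, 0.332 without G564E replicate 3 and 0.0377 without G564E replicate 1. These intervals cover counting error only and leave out the spread between libraries. In a fit with no low-count filter, Bra006224 was not called against NT in AtPHYB (edgeR adjusted p = 0.354) or in G564E (edgeR adjusted p = 0.381). Nor was it called in G564E against AtPHYB (log2 fold change -2.16, edgeR adjusted p = 0.259).

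F3H converts flavanones to dihydroflavonols, and it had the most reads of the set. The level of Bra036828 was 13.7, 12.2 and 11.8 CPM in G564E replicates 1, 2 and 3, 8.81, 5.56 and 8.17 CPM in the AtPHYB replicates and 3.06, 3.82 and 5.16 CPM in the NT replicates. Every G564E library was above every AtPHYB library, and every AtPHYB library was above every NT library, though AtPHYB replicate 2 and NT replicate 3 lay close together.

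F3H rose in G564E against NT, by a log2 fold change of 1.64 ± 0.25 (SE), or 3.12-fold (edgeR adjusted p = 0.00245). It was called in all 19 alternatives, with adjusted p between 1.56e-08 and 0.0116, and without G564E replicate 1 the log2 fold change was 1.57 (edgeR adjusted p = 0.00266). Of the 27967 genes tested in that comparison, 27.0% were called, 13.8% were called as higher, and 22.2% lay above NT without overlap. F3H had a larger log2 fold change than 94.2% of the genes tested.

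F3H also rose in G564E against AtPHYB, by 0.74 ± 0.24 on the log2 scale (SE), or 1.67-fold (edgeR adjusted p = 0.0417), in a comparison where 35.0% of genes were called, 18.4% were called as higher, and 25.8% lay above AtPHYB without overlap. This call is near the threshold. It was lost with the replicate number as a block (log2 fold change 0.76, edgeR adjusted p = 0.0537) and kept when the block was fitted to these 2 genotypes alone (edgeR adjusted p = 0.0373), and the adjusted p ran from 0.00739 to 0.134 over the alternatives. Leaving out AtPHYB replicates 1, 2 and 3 gave adjusted p of 0.0551, 0.134 and 0.0875, leaving out G564E replicates 1, 2 and 3 gave 0.0637, 0.0801 and 0.0730, and leaving out NT replicate 2 gave 0.0594 (edgeR). The log2 fold change in these fits lay between 0.66 and 0.86, except for 0.55 without AtPHYB replicate 2.

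In AtPHYB against NT the log2 fold change of F3H was 0.91 ± 0.25 (SE), or 1.87-fold, and was not called (edgeR adjusted p = 0.201). The adjusted p over the alternatives ran from 0.0280, in DESeq2, to 0.547. Only 0.190% of all genes were called in that comparison, whereas 13.2% lay above NT without overlap, as F3H did.

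F3'H adds a hydroxyl group to the flavonoid B ring. Bra009312 had 7, 8 and 21 reads in the G564E replicates, 3, 1 and 6 in the AtPHYB replicates and 4, 5 and 9 in the NT replicates. Its highest value was 0.973 CPM in G564E replicate 3, and every pair of genotypes overlapped. Summed reads in G564E were 1.80 times those in NT after scaling (exact 95% counting interval 0.995 to 3.36) and 2.94 times those in AtPHYB (1.43 to 6.64). Without G564E replicate 3 these ratios were 1.15 and 1.88, and without AtPHYB replicate 3 the ratio to AtPHYB was 4.78. The gene was not called in a fit without a filter (edgeR adjusted p = 0.439 and 0.146 for these comparisons, and 0.727 for AtPHYB against NT).

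DFR reduces dihydroflavonols to leucoanthocyanidins, the substrates of ANS. Bra027457 had 33, 1 and 1 reads in G564E replicates 1, 2 and 3, 6, 8 and 3 reads in the AtPHYB replicates and 5, 7 and 1 reads in the NT replicates. Of the 35 DFR reads in G564E, 33 came from replicate 1. Summed reads in G564E were 2.42 times those in NT (exact 95% counting interval 1.25 to 4.99), but 0.217 times those in NT without G564E replicate 1, so the direction rests on that library. Against AtPHYB the ratio was 1.68 (0.916 to 3.20) with all libraries and 0.151 without G564E replicate 1. No comparison of DFR was called without a filter (edgeR adjusted p = 0.519 for G564E against NT, 0.735 for G564E against AtPHYB and 0.911 for AtPHYB against NT).

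ANS makes the anthocyanidins, and its first copy had the largest log2 fold changes against NT among the 3 tested members. The level of Bra013652 was 11.8, 6.59 and 6.35 CPM in G564E replicates 1, 2 and 3 (266, 117 and 137 reads), 2.99, 7.19 and 2.16 CPM in the AtPHYB replicates (54, 106 and 38 reads) and 0.360, 0.245 and 0.109 CPM in the NT replicates (6, 5 and 2 reads). All 6 transgenic libraries were above all 3 NT libraries. Of all genes tested, 22.2% lay above NT without overlap in G564E and 13.2% in AtPHYB. AtPHYB replicate 2 lay within the range of the G564E libraries.

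ANS Bra013652 rose in G564E against NT, by a log2 fold change of 5.10 ± 0.62 (SE), or 34.2-fold (edgeR adjusted p = 0.000979). It was called in all 19 alternatives, with adjusted p between 3.54e-13 and 0.00582, and without G564E replicate 1 the log2 fold change was 4.74 (edgeR adjusted p = 0.000846). With the reads of both ANS copies summed it was 4.43 (edgeR adjusted p = 0.000570). It exceeded the log2 fold change of 99.5% of the genes tested. It had joined these genes through the AtPHYB and G564E libraries alone, where it was high. With no filter the log2 fold change was 5.07 (edgeR adjusted p = 0.000686). The NT value rests on 13 reads in 3 libraries, and G564E had 36.0 times the summed reads of NT (exact 95% counting interval 20.8 to 68.0).

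In AtPHYB against NT, ANS Bra013652 had a log2 fold change of 4.08 ± 0.62 (SE), or 16.9-fold, and missed the threshold narrowly (edgeR adjusted p = 0.0520), while only 53 of 27967 genes were called. It was called in 6 of 19 alternatives, with adjusted p from 2.92e-07 in DESeq2 to 0.198. The call appeared without NT replicate 3 (log2 fold change 3.74, edgeR adjusted p = 0.0357), without G564E replicate 1, which enters through the shared estimate of the spread (4.08, edgeR adjusted p = 0.0269), in a fit of the AtPHYB and NT libraries alone (edgeR adjusted p = 0.0474), with the reads of both ANS copies summed (edgeR adjusted p = 0.0323) and with no filter (edgeR adjusted p = 0.0444). Summed reads were 16.8 times those in NT (exact 95% counting interval 9.59 to 32.1), and without AtPHYB replicate 2 the log2 fold change was 3.42.

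Between G564E and AtPHYB the log2 fold change of ANS Bra013652 was 1.01 ± 0.48 (SE), or 2.02-fold, and was not called (edgeR adjusted p = 0.134). Without AtPHYB replicate 2 it was 1.67 and called (edgeR adjusted p = 0.0348), and the adjusted p ran from 0.0326, with library size alone as the scale, to 0.340 over the alternatives.

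**Figure D3:**
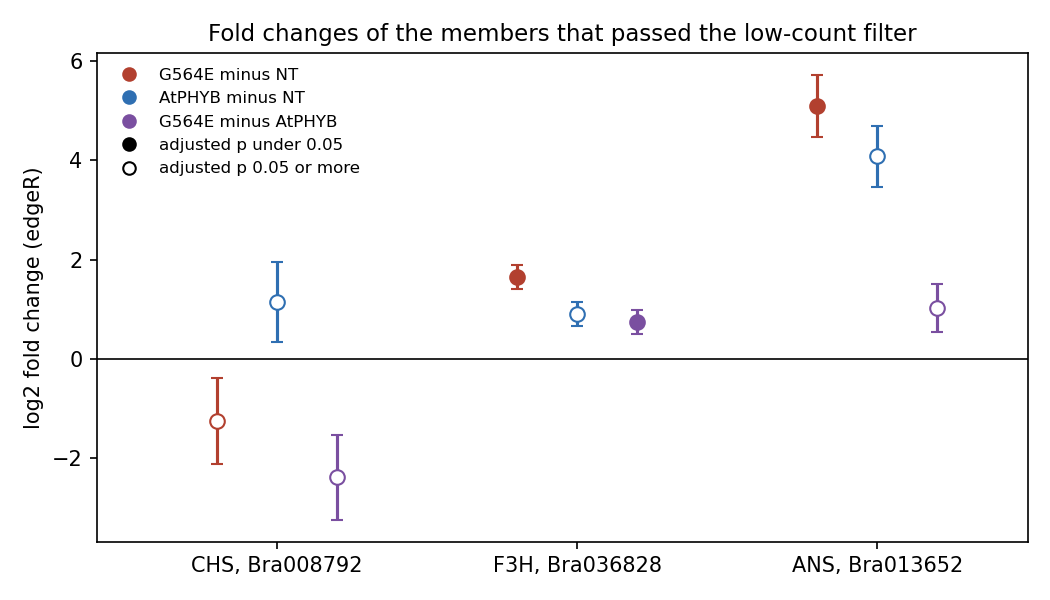
Log2 fold changes (edgeR, bars are standard errors) of the 3 members that passed the low-count filter, for G564E minus NT, AtPHYB minus NT and G564E minus AtPHYB; filled points have an adjusted p under 0.05. F3H Bra036828 and ANS Bra013652 lie above 0 in all 3 comparisons, and CHS Bra008792 lies below 0 in both comparisons of G564E.

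The second ANS copy, Bra019350, had another order. It had 1, 0 and 0 reads in G564E replicates 1, 2 and 3, 13, 0 and 12 reads in the AtPHYB replicates and 1, 3 and 4 reads in the NT replicates. The libraries with most reads of it, AtPHYB replicates 1 and 3, were those with most CHS reads, and AtPHYB replicate 2, with none, had the most reads of ANS Bra013652 in its genotype. G564E had fewer reads than AtPHYB by a factor of 30.6 (exact 95% counting interval 5.02 to 1258), from 1 read against 25. The single read was in G564E replicate 1, so no ratio could be had without it, and without G564E replicate 3 G564E had 0.0502 times the reads of AtPHYB. With no filter on low counts, Bra019350 was lower in G564E than in AtPHYB, at a log2 fold change of -4.42 ± 1.37 (SE; edgeR adjusted p = 0.0400), where 25.8% of 35963 genes were called, and 12.4% were called as lower. In some fits with a library left out the gene passed the filter, through AtPHYB replicates 1 and 3 alone, where it was high, and the adjusted p then ran from 0.0121 without AtPHYB replicate 2 to 0.0978 without G564E replicate 3 (edgeR). Against NT, G564E was not called (log2 fold change -2.74, edgeR adjusted p = 0.230). Every G564E library lay below every NT library, at 0.0445, 0 and 0 CPM against 0.0599, 0.147 and 0.217 CPM. G564E replicate 1 and NT replicate 1 held 1 read each, however, and were set apart by scaled library size alone. G564E had 0.112 times the summed reads of NT (exact 95% counting interval 0.00253 to 0.838). The share of all genes lying below NT without overlap is not given.

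TT19 carries anthocyanins towards the vacuole in Arabidopsis. Bra023602 had 7, 1 and 2 reads in the G564E replicates, 4, 3 and 8 in the AtPHYB replicates and 1, 3 and 2 in the NT replicates. Every AtPHYB library was above every NT library in CPM, at 0.222, 0.203 and 0.454 CPM against 0.0599, 0.147 and 0.109 CPM, but AtPHYB replicate 2 and NT replicate 2 held 3 reads each and were set apart by scaled library size alone (edgeR adjusted p = 0.548 with no filter). Of the genes that passed the filter, which leave out Bra023602, 13.2% lay above NT without overlap in AtPHYB. Summed reads in AtPHYB were 2.75 times those in NT (exact 95% counting interval 1.01 to 8.67). Bra008570 had 1 read, in NT replicate 2, and 0 in the other 8 libraries. A count of 0 allows an expected count of up to about 3 reads (a one-sided 95% bound), or 0.134 to 0.203 CPM in a library. Expression below that level can leave no read at this depth.

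The count of members called is given beside the share called over all genes in each comparison. The members were chosen with earlier results of these data known. ANS Bra013652 passed the filter through the AtPHYB and G564E libraries alone. CHS Bra008792 passed it only with the AtPHYB libraries. The counts are therefore descriptive and do not test the set. Of the 9 members, 3 were tested after the filter, and edgeR called 2 of them in G564E against NT (27.0% of all genes tested), both higher, and 1 in G564E against AtPHYB (35.0%), also higher. In AtPHYB against NT edgeR called 0 (0.190%), with 2 at an unadjusted p under 0.05 (13.6%), while DESeq2 called 2 and limma-voom called 0. With no filter all 9 members entered the fit, and 2, 1 and 1 were called for G564E against NT, G564E against AtPHYB and AtPHYB against NT, where 19.6%, 25.8% and 0.150% of 35963 genes were called. The one member called between G564E and AtPHYB without a filter was ANS Bra019350, in place of F3H (edgeR adjusted p = 0.0533). The median log2 fold change of all 27967 tested genes was 0.02, 0.05 and -0.0049 in the same order of comparisons. The comparisons share libraries, so these counts are not independent of one another.

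The copies of an enzyme were then set against each other within each library, so that no depth scaling was used. Gene lengths were not used, so a share describes reads and not relative transcript levels. Of the ANS reads, Bra019350 took 0.375%, 0% and 0% in G564E replicates 1, 2 and 3, 19.4%, 0% and 24.0% in the AtPHYB replicates and 14.3%, 37.5% and 66.7% in the NT replicates. The NT shares rest on 6 to 8 reads per library, with an exact (Clopper-Pearson) 95% interval of 0.361% to 57.9% in replicate 1, whereas the upper bound in G564E was at most 3.10%. The mean log2 ratio of Bra013652 to Bra019350 reads (0.5 added to each) was 7.82 in G564E, 3.79 in AtPHYB and 0.64 in NT. Bra019350 had 0 reads in G564E replicates 2 and 3 and AtPHYB replicate 2. There the ratio was set by the Bra013652 reads and the 0.5 added, so it depends on depth. The G564E and AtPHYB means carry this limit. Across the 3 genotypes the ratio gave p = 0.0286 in an exact permutation test over the 9 libraries (1680 arrangements), and p = 0.0857 after Benjamini-Hochberg adjustment over the 3 enzyme pairs, so it did not pass. It passed without AtPHYB replicate 2 (adjusted p = 0.0482, exact permutation test) and with 5 reads added to each copy (adjusted p = 0.0107, exact permutation test). The adjusted p ran up to 0.273 without NT replicate 2. Adding 5 reads pulls the ratio towards equal copies most in NT, where the pair had 6 to 8 reads per library. The pass with 5 reads added therefore does not separate the balance of copies from the number of reads. The share of the pair's reads, which needs no added reads, did not pass either (adjusted p = 0.257, exact permutation test). G564E and NT alone gave p = 0.1, the smallest that an exact 2-sided test of 3 against 3 allows.

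For CHS, Bra006224 took 33.3%, 33.3% and 0% of the pair's reads in the G564E replicates, 22.5%, 0% and 35.2% in the AtPHYB replicates and 0%, 0% and 3.85% in the NT replicates. In AtPHYB replicate 3, with 71 reads of the pair, the interval was 24.2% to 47.5%, and in NT replicate 3, with 26 reads, it was 0.0973% to 19.6%. The mean log2 ratio of Bra008792 to Bra006224 reads was 1.34 in G564E, 2.33 in AtPHYB and 4.13 in NT. In the libraries with 0 reads of Bra006224 this ratio too depends on depth and the added 0.5. The ratio did not pass the test across genotypes (exact permutation p = 0.136, adjusted p = 0.136). It passed without AtPHYB replicate 2 (adjusted p = 0.0482, exact permutation test) and with 5 reads added to each copy (adjusted p = 0.0375, exact permutation test). It did not pass as a share of the pair's reads (adjusted p = 0.536, exact permutation test). Adding 5 reads pulls the ratio towards equal copies most in libraries with few reads of the pair, such as G564E replicates 2 and 3. The pass with 5 reads added therefore does not separate the balance of copies from the number of reads. For TT19 the pair held 1 read of Bra008570 in all, so no balance of copies could be read, although its p entered the adjustment (exact permutation p = 0.129).

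**Figure D4:**
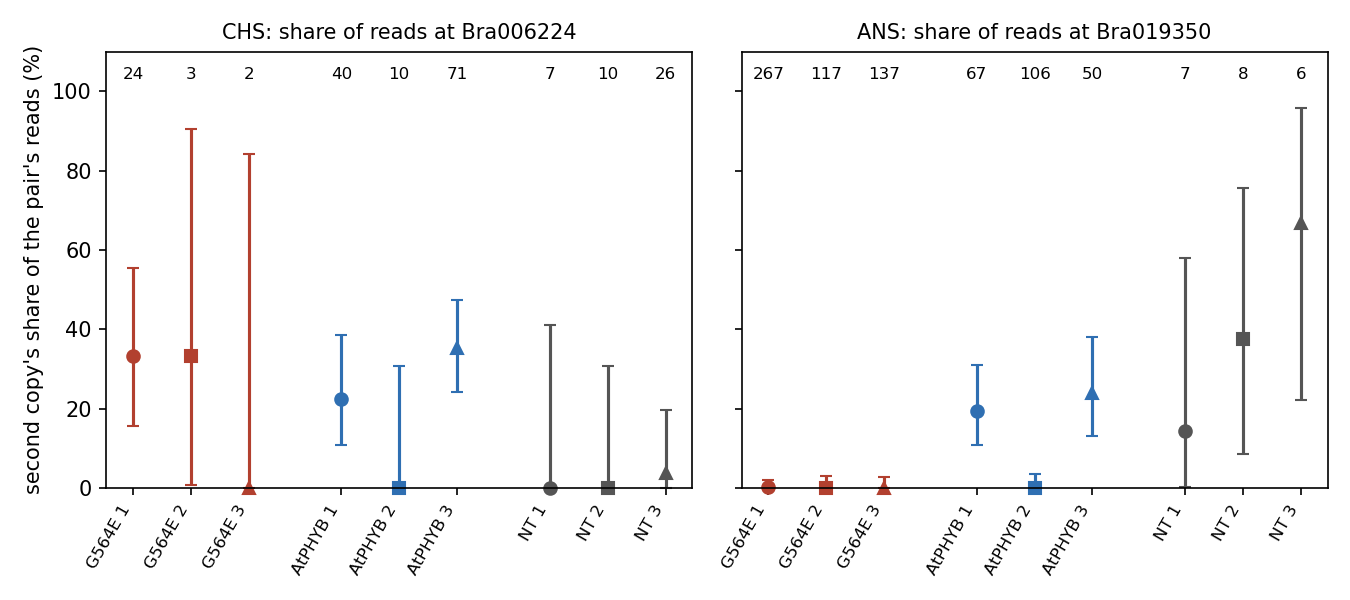
Share of an enzyme's reads counted at the second copy in each library, for CHS (Bra006224, left) and ANS (Bra019350, right), with exact 95% binomial intervals and the reads of the pair printed above. For ANS the share is at most 0.375% in the G564E libraries, 0% to 24.0% in AtPHYB and 14.3% to 66.7% in NT.

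Likeness between genes was measured as the root mean square difference of log2 CPM profiles over the 9 libraries, each profile centred on its own mean. F3H Bra036828 and ANS Bra013652 lay 1.51 apart on the log2 scale, F3H and CHS Bra008792 also 1.51, and ANS Bra013652 and CHS Bra008792 lay 2.63 apart. Ordered by distance from ANS Bra013652, F3H ranked 341 among 27966 genes and CHS Bra008792 ranked 25956. The rank of F3H was 200 without NT replicate 3 and 516 without AtPHYB replicate 2. From F3H, ANS Bra013652 ranked 25780 and CHS Bra008792 ranked 25781, so many genes had a profile nearer to that of F3H. From the mean profile of these 3 members, F3H lay 0.499 away (rank 102 among 27967 genes). CHS Bra008792 and ANS Bra013652 each lay 1.34 away (ranks 23792 and 23790). The mean was therefore unlike the profiles of CHS Bra008792 and ANS Bra013652, and nearness to it does not tie an ID to them. The IDs nearest to the mean were Bra006586, at a distance of 0.244, and Bra025562, at 0.275. Neither ID came with a name, and each library held between 3 and 31 reads of either. Both remained the nearest with library size alone and without any one AtPHYB or G564E library. Only Bra006586 remained without NT replicate 2 or with a prior count of 5, only Bra025562 without NT replicate 1, and neither without NT replicate 3. Bra006586 stood at 1.01 ± 0.132 CPM in G564E, 1.05 ± 0.0487 CPM in AtPHYB and 0.268 ± 0.102 CPM in NT, and Bra025562 at 0.986 ± 0.342, 1.47 ± 0.0583 and 0.383 ± 0.0774 CPM in the same genotypes (SD, n = 3 each).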

How the data were processed

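The authors deposited raw counts of reads per gene ID, 1 library per file, from stranded mRNA libraries read on a NovaSeq machine, as stated per the labels' protocols. Per the submitters' processing notes, FastQC 0.11.8, Trimmomatic 0.39, TopHat2, HTSeq and edgeR were used. The sources used here give neither their settings nor the build, annotation and strand option behind the counts. Of the 41020 IDs, 1 matched the RefSeq genes of assembly CAAS_Brap_v3.01 and none of the 9 members did, so no coordinates, lengths or sequences are given, and lists of further pathway genes and tissue markers drawn up by symbol could not be filled.

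The counts went through edgeR 4.0.16 under R 4.3.3: filterByExpr at its defaults (27967 genes), TMM scaling, and a quasi-likelihood fit of 1 mean per genotype to all 9 libraries, with 2-sided tests and Benjamini-Hochberg adjustment over all genes tested. Calls were made at an adjusted p under 0.05, and standard errors (SE) are log2 fold changes over the square root of F. The code was tested on simulated data, whose values are not reported here. A member that was not called may still differ between genotypes. Summed-read ratios were scaled by TMM-adjusted library size with exact 95% intervals. DESeq2 1.42.0, limma 3.58.1, other scalings and filters, fits of the compared genotypes alone, left-out libraries and a replicate block were alternatives. The members and lists were chosen with earlier results of these data known. All 9 members are named, with the 2 IDs nearest to the mean profile of those tested.

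The labels number replicates 1 to 3 in each genotype. Deviations from the genotype means correlated at 0.41, 0.31 and 0.12 between G564E and AtPHYB libraries of the same number, so these libraries may be paired. Correlations between libraries of unlike number are not given, so a pairing was not established. All values come from the fit without the block unless stated, and the blocked value is given where it changed a call. No label says what the number marks. The correlations ran from -0.084 to 0.085 between AtPHYB and NT libraries and from -0.17 to 0.019 between G564E and NT libraries. The block fitted to all 9 libraries nevertheless pairs the NT libraries too.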

Additional observations from a re-analysis of the deposited data

How the results depend on the processing

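Of 173 alternative results for the log2 fold changes of the 3 tested members, none changed direction. Of these, 150 kept their side of the threshold, 10 lost a call and 13 gained one. They include the threshold of 0.01, for which nothing was refitted. They also include the fit with copies summed for F3H, which has 1 copy in the set. All 10 lost calls were of F3H in G564E against AtPHYB, and 1 of them came from the stricter threshold alone. For AtPHYB minus NT the count of members called was 0, and became 1 with no filter, 2 in DESeq2, 1 when only the compared genotypes were fitted, 1 with the copies summed (an alternative chosen after seeing the data, as was the block fit of 2 genotypes) and 0 to 1 when a library was dropped. In G564E against NT it was 2, and 2 to 3 when a library was dropped. In G564E against AtPHYB it was 1, and became 2 with library size alone, 2 in DESeq2, 2 in limma-voom, 0 with the replicate block, 0 at an adjusted p under 0.01 and 0 to 2 when a library was dropped. The replicate block changed no other call of a member. Library size alone put the median over all genes at -0.11, 0.34 and 0.47 on the log2 scale (AtPHYB against NT, G564E against NT, G564E against AtPHYB); relative to that median, F3H with library size alone was at 0.93, 1.63 and 0.67 and ANS Bra013652 at 4.05, 5.08 and 1.00.

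Genes called among all tested ran from 6 to 961 (53 as reported), 3170 to 10702 (7545) and 4684 to 13255 (9777) in the same order. With 5 reads added to each copy in place of 0.5, the ANS log2 ratio differed by 2.23, 4.70 and 2.47 in these comparisons. The CHS ratio then differed by -0.49, -1.26 and -0.77, and both passed (adjusted p = 0.0107 for ANS and 0.0375 for CHS, exact permutation). Added reads pull the ratio towards equal copies most where a pair holds few reads. These passes therefore do not separate the balance of copies from the number of reads. As shares of the pair's reads neither passed (adjusted p = 0.257 for ANS and 0.536 for CHS, exact permutation). With 0.5 added, permuting the ratio within replicate numbers (the replicate block) gave adjusted p of 0.167 for ANS and 0.222 for CHS (exact permutation). Dropping a library, the ANS differences ran from 1.18 to 4.23, 6.43 to 7.92 and 2.94 to 5.999, and the CHS differences from -2.83 to -1.07, -3.28 to -2.49 and -1.72 to 0.0406, the last reversed without AtPHYB replicate 2; adjusted p ran from 0.0482 to 0.273 (exact permutation), the lowest without AtPHYB replicate 2, and the cause was not tested. Depth limits 6 of the 9 members, which had at most 65 reads each over all libraries.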
